A study of Mus musculus with 8 samples.

Results

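The genes described here are 37 genes that mark or act in the endothelium of the liver. They were taken by symbol from the deposited gene table, where each stood on 1 row, and they are 37 of its 19348 genes. Transcript levels came from sequencing of liver tissue of 5-week-old mice, with 5 libraries from Stab1 knock-out mice and 3 from wild-type mice. Strain, sex and the construction of the allele are not stated in the labels. The labels also do not tie libraries to separate animals, so the p-values only measure spread from library to library, which may be technical. The 37 genes were sorted by role into 10 sinusoidal markers, 3 angiocrine Wnt pathway ligands, 8 growth factor receptors, 7 junction and pan-endothelial genes, 3 genes of larger vessels and continuous capillaries, 4 transcription factors and 2 activation genes.

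Liver sinusoids are lined by a specialised endothelium that is perforated by open pores and lacks a continuous basement membrane. Its cells clear material from blood through scavenger receptors, among them stabilin-1 and stabilin-2, take up growth signals through vascular endothelial growth factor (VEGF) receptors, and secrete Wnt ligands and R-spondins that set the metabolic zones of neighbouring hepatocytes. The transcription factors GATA4 and c-Maf help to keep this sinusoidal state, while genes such as Cd34, Vwf and Emcn are higher in the endothelium of continuous capillaries and larger vessels.

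Library totals ran from 4.85 to 10.8 M (mega) counted reads. Stab1, the targeted gene, held 5 to 16 reads in the knockout libraries and 474 to 594 in the wild-type libraries (log2 fold change -5.38, SE 0.22, edgeR adjusted p = 3.14e-06). The library with the fewest reads was knockout library 1, and it differed from the rest: Xist had 3 reads there and 4445 to 8222 elsewhere, and Ddx3y, on the Y chromosome, had 320 reads there and 0 to 4 elsewhere. By these reads knockout library 1 is male and the other libraries are female, though the labels give no sex. The genotypes were thus not matched for sex, and results are given with and without that library. Libraries also differed in how evenly reads covered genes. The evenness value is the mean amount by which the covered percent of a gene exceeded that of genes with the same reads per length, over genes with 20 to 500 reads. It was 1.44 percentage points in knockout library 1 and -2.15 to 0.27 in knockout libraries 2 to 5. Wild-type libraries 1 to 3 had values of 1.88, 1.45 and -0.83.

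All 37 genes had reads in every library and all 37 passed the filter on low counts. Endothelial defining markers such as Pecam1 and Cdh5 were thus detected, and so was Stab2, which is not one of the 37. However, reads in whole liver do not show which cells they came from, and some of the 37 genes, Ctsl and Maf among them, are expressed by other liver cells too. Levels below are in CPM (counts divided by the library's effective size, set with TMM, the trimmed mean of M values), group values are mean ± SD with n = 5 knockout and n = 3 wild type, and log2 fold changes are knockout over wild type. Unless DESeq2 is named, edgeR's quasi-likelihood F test over 12338 genes gave the adjusted p-values. In bulk liver, fewer endothelial cells and less RNA per cell cannot be told apart.

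No endothelial gene passed the edgeR test at an adjusted p of 0.05: 0 of 37 were called, beside 0.227% of all tested genes. The fitted log2 fold change was negative for 28 of the 37 genes, against 50.9% of all tested genes. The median log2 fold change was -0.22 over the 37 genes and -0.01 over all tested genes. At an unadjusted p below 0.05, 8 of the 37 had negative log2 fold changes (Kdr, Flt4, Nrp2, Dnase1l3, Ehd3, Oit3, Sox18 and Erg), beside 5.9% of tested genes, and 1 had a positive one (Maf), beside 7.73%. The count of 8 depended on single libraries, and the share of tested genes moved too. It was 2 without wild-type library 1 (Kdr and Nrp2), beside 2.98%, and 4 without wild-type library 2, beside 3.22%. It was 13 without wild-type library 3, beside 10.3%, 11 without knockout library 1, beside 12.3%, and 5 without knockout library 2, beside 3.99%. With coverage evenness as a covariate it was 3 (Dnase1l3, Kdr and Nrp2), beside 3.79%. Knockout and wild-type libraries did not overlap for 4 genes. Nrp2, Flt4 and Tie1 were lower in every knockout library, where 3.61% of tested genes had that pattern, and Maf was higher in every knockout library, where 3.04% did. The DESeq2 Wald test called 1 of the 37, Nrp2, as lower, beside 1.11% of tested genes called in either direction.

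**Figure D1:**
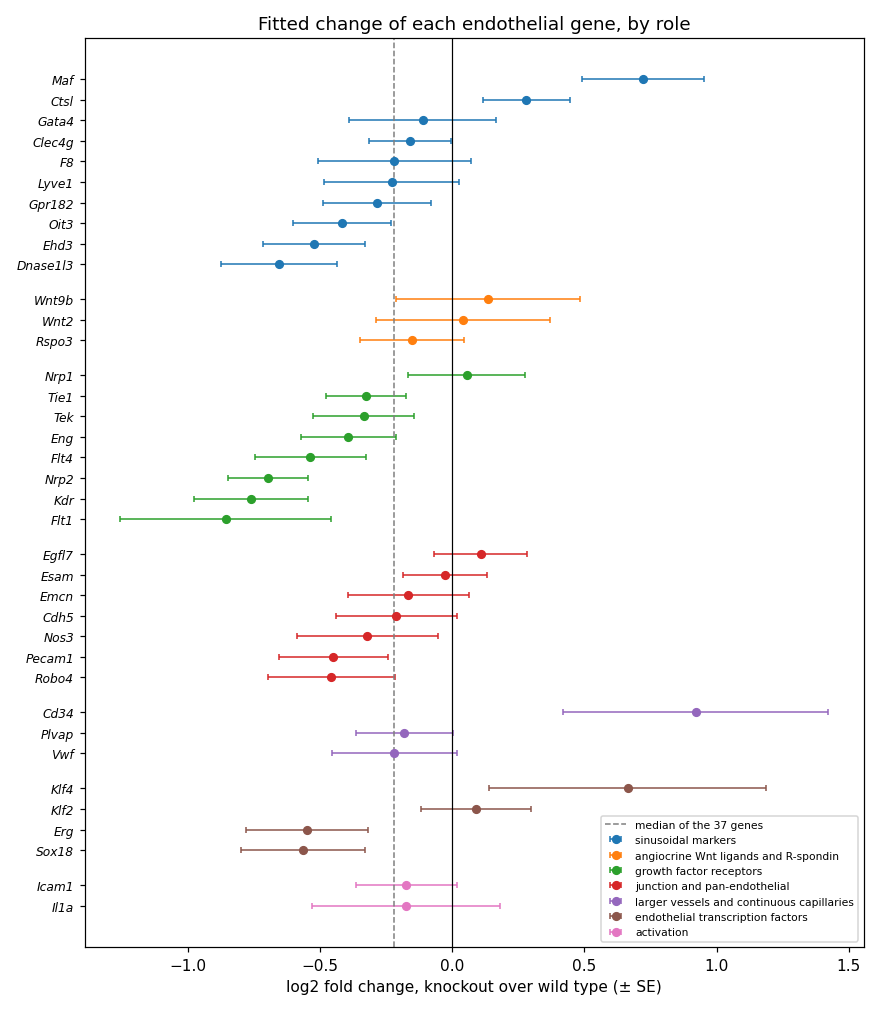
Fitted log2 fold change of each of the 37 genes (x axis, knockout over wild type), with bars for ± SE, grouped by role down the y axis. Most points lie left of 0, 7 of the 8 growth factor receptors among them, and the dashed line at -0.22 is the median of the 37 genes.

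Flt1, Kdr and Nrp2 had the 3 lowest fitted values of the 37 genes, and all are receptors of the VEGF family of ligands. Kdr (VEGFR2) is the main signalling receptor for VEGF-A in endothelium, Flt1 (VEGFR1) binds VEGF-A tightly and limits its signal, Flt4 (VEGFR3) binds VEGF-C and is kept by sinusoidal and lymphatic endothelium, and Nrp1 and Nrp2 are co-receptors. The stretches upstream of the start sites of Kdr, Flt1, Nrp1 and Nrp2 are shown because Nrp1 and Nrp2 are paralogs whose values differed and Kdr and Flt1 had the 2 lowest fitted values. They run from 190 to 41 bases before the start site in RefSeq's GRCm38.p6 and overlap no annotated exon on their strand. Capitals mark 4 motifs, searched on both strands, with overlaps allowed: GGGCGG is the GC box bound by SP1 and KLF factors. GGAAG is a core bound by ETS factors. AGATAA is a core bound by GATA factors. TATAAA is the TATA box.
Kdr, chr5:75978496-75978645, minus strand: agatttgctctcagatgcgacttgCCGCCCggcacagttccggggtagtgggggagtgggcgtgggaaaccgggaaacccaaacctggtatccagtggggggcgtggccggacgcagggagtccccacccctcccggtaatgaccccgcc
Flt1, chr5:147726052-147726201, minus strand: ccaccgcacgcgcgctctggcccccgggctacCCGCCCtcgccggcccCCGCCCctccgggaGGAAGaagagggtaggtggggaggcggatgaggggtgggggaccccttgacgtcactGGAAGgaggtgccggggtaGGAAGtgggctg
Nrp1, chr8:128358883-128359032, plus strand: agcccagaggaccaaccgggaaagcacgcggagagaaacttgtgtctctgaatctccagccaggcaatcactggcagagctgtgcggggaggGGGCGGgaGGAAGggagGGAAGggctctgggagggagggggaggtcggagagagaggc
Nrp2, chr1:62703127-62703276, plus strand: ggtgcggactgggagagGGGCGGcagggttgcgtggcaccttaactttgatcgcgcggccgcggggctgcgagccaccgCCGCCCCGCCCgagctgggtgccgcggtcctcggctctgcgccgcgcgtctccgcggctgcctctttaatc

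All 4 windows hold the GC box, with 1 match in Kdr, 2 in Flt1, 1 in Nrp1 and 3 in Nrp2. GGAAG occurs 3 times in Flt1, 2 times in Nrp1 and not in the windows of Kdr and Nrp2. The RefSeq table held 27 promoter windows for 23 of the 37 genes, with 3 each for Egfl7 and Erg. Of the 27 windows, 10 held GGGCGG, 15 held GGAAG, 1 held AGATAA and 1 held TATAAA, the last 2 in different windows of Erg. Among all 32851 promoter windows of the same length the shares were 24.0%, 45.6%, 6.02% and 6.51%. These matches are letters in the window and were not tied to any measured binding.

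Nrp2 had the smallest p of the 37 genes. It was at 9.58, 8.92, 8.11, 7.20 and 8.89 CPM in knockout libraries 1 to 5 and at 15.1, 13.8 and 12.5 CPM in wild-type libraries 1 to 3. Every knockout library was below every wild-type library, and the gap was wider than the spread within either group. The group values were 8.54 ± 0.913 CPM (SD, n = 5) and 13.8 ± 1.29 CPM (SD, n = 3), a fold change of 0.616 (log2 fold change -0.70, SE 0.15, edgeR unadjusted p = 8.89e-04, edgeR adjusted p = 0.187, DESeq2 adjusted p = 0.0249). Its covered percent was 25.4% to 41.3% in knockout libraries and 46.1% to 66.5% in those of wild type. Its paralog Nrp1 had no such pattern. Nrp1 was at 165, 104, 118, 80.1 and 109.5 CPM in knockout and at 90.4, 113 and 129.5 CPM in wild-type libraries (log2 fold change 0.06, SE 0.22, edgeR adjusted p = 0.915), so the wild-type values lay within the knockout range.

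Kdr was at 40.7, 22.8, 34.9, 29.8 and 29.3 CPM in knockout libraries 1 to 5 and at 68.8, 52.1 and 38.9 CPM in wild-type libraries 1 to 3. The groups overlapped through knockout library 1, which lay above wild-type library 3, while knockout libraries 2 to 5 lay below all wild-type libraries. The mean was 31.5 ± 6.68 against 53.3 ± 15.02 CPM (log2 fold change -0.76, SE 0.22, edgeR unadjusted p = 0.00544, adjusted p = 0.301). Flt1 was at 9.39, 2.34, 4.24, 4.45 and 4.39 CPM in knockout and at 11.99, 9.40 and 4.71 CPM in wild-type libraries. Knockout library 1 was high for Flt1 and wild-type library 3 was low, so that the lowest fitted value of the 37 genes (-0.86) carried a wide error (SE 0.40, edgeR adjusted p = 0.371). Flt4 was at 25.2, 12.7, 21.8, 20.5 and 16.7 CPM in knockout and at 32.6, 25.7 and 25.8 CPM in wild-type libraries (log2 fold change -0.54, SE 0.21, edgeR adjusted p = 0.339). Its groups did not overlap, and knockout library 1 lay just below wild-type libraries 2 and 3.

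**Figure D2:**
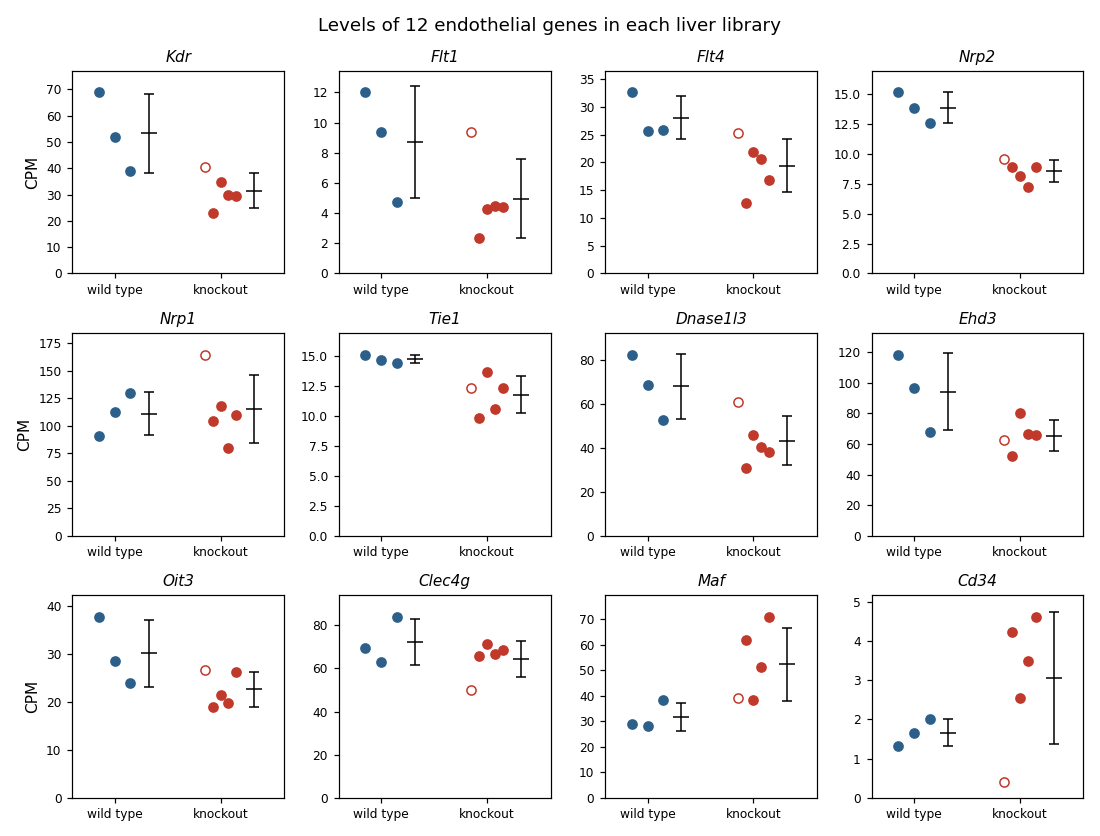
Level in CPM (y axis) of 12 of the 37 genes in each wild-type (blue, left) and knockout (red, right) library, with the group mean ± SD in black and knockout library 1 as an open circle. Nrp2, Flt4 and Tie1 are lower and Maf is higher in every knockout library, while Kdr, Flt1 and Dnase1l3 overlap only through the open circle.

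Tie1, an orphan receptor that modulates Tek, was at 12.3, 9.81, 13.7, 10.6 and 12.4 CPM in knockout and at 15.1, 14.7 and 14.4 CPM in wild-type libraries, with no overlap (log2 fold change -0.33, SE 0.15, edgeR adjusted p = 0.368). Tek (TIE2), the angiopoietin receptor, was at 10.65 ± 1.095 against 13.4 ± 3.76 CPM, and wild-type library 3, at 10.5 CPM, lay within the knockout range of 8.92 to 11.5 CPM. Eng, a co-receptor for BMP9 and TGF-beta ligands and the receptor with the highest level per length in wild-type liver, was at 81.6, 49.7, 65.2, 68.2 and 62.8 CPM in knockout and at 103, 85.0 and 69.9 CPM in wild-type libraries (log2 fold change -0.39, SE 0.18, edgeR adjusted p = 0.367). For Eng too, knockout library 1 lay above wild-type library 3 and the other knockout libraries lay below all wild-type libraries. Over the 8 receptors the median log2 fold change was -0.47, 7 were negative and edgeR called 0.

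Among the ligands and targets of these receptors, 0 of 8 tested genes of the VEGF, angiopoietin and BMP9 and BMP10 ligand list were called and 5 had negative log2 fold changes. The 3 with the smallest p were Tgfb1 (-0.53, SE 0.20, edgeR adjusted p = 0.338), Vegfa (-0.48, SE 0.19, 0.344) and Angpt1, an agonist of Tek (0.95, SE 0.44, 0.372). Vegfa was at 118, 128, 158, 119.6 and 152 CPM in knockout and at 144, 172 and 250.03 CPM in wild-type libraries, with overlap. In the list of ALK1 and BMP signalling genes, 0 of 11 were called and 4 were negative. Smad6, an inhibitory SMAD that BMP9 signalling induces, was below every wild-type library in all knockout libraries (5.53 ± 0.842 against 8.71 ± 0.669 CPM, log2 fold change -0.65, SE 0.18, edgeR adjusted p = 0.293). That pattern was shared by 3.61% of tested genes. In the Notch list, 0 of 11 tested genes were called and 9 were negative, with Heyl (-1.42, SE 0.45), Notch4 (-0.54, SE 0.25) and Dll1 (-0.51, SE 0.24) having the smallest p (edgeR adjusted p = 0.327, 0.367 and 0.374).

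The sinusoidal markers held values in both directions. Their median log2 fold change was -0.22, with 8 of 10 negative and 0 called. Dnase1l3, a secreted DNase that digests DNA in chromatin, was at 60.8, 30.8, 45.9, 40.5 and 38.3 CPM in knockout and at 82.4, 68.6 and 52.9 CPM in wild-type libraries (log2 fold change -0.66, SE 0.22, edgeR unadjusted p = 0.0132, adjusted p = 0.332). Its groups overlapped through knockout library 1 and wild-type library 3. Ehd3, an endocytic recycling protein found in sinusoidal endothelium, was at 62.8, 52.4, 80.1, 66.6 and 65.9 CPM in knockout and at 119, 96.5 and 67.8 CPM in wild-type libraries (log2 fold change -0.52, SE 0.19, edgeR adjusted p = 0.333). Oit3, a secreted or membrane-associated protein marking liver sinusoidal cells in mice, was at 26.6, 18.9, 21.5, 19.8 and 26.2 CPM in knockout and at 37.8, 28.6 and 24.0 CPM in wild-type libraries (log2 fold change -0.42, SE 0.18, edgeR adjusted p = 0.359). In all 3 genes wild-type library 1 was the highest of the 8 libraries and wild-type library 3 was the lowest wild-type library, within the knockout range for Dnase1l3, Ehd3 and Oit3.

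Maf, which encodes c-Maf, went the other way. It was at 39.1, 62.0, 38.2, 51.4 and 71.0 CPM in knockout libraries 1 to 5 and at 29.0, 28.1 and 38.2 CPM in wild-type libraries 1 to 3 (52.3 ± 14.3 against 31.8 ± 5.57 CPM, log2 fold change 0.72, SE 0.23, edgeR unadjusted p = 0.0102, adjusted p = 0.327). Every knockout library was above every wild-type library, but knockout library 3 and wild-type library 3 were level to 3 digits. Macrophages also express Maf. In the list of 13 Kupffer cell (liver macrophage) markers, 4 had negative log2 fold changes, the median was 0.21, 0 were called, and their summed level was 623 to 908 CPM in knockout libraries and 532 to 716 CPM in those of wild type. The part of those cells in the Maf value was not tested.

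The other sinusoidal markers showed no separation of the groups. Clec4g, a C-type lectin of sinusoidal cells and the second highest of the 37 genes per length, was at 49.9, 65.9, 71.5, 66.6 and 68.7 CPM in knockout and at 69.6, 63.1 and 83.9 CPM in wild-type libraries (log2 fold change -0.16, SE 0.16, edgeR adjusted p = 0.631). Ctsl, the lysosomal protease cathepsin L, which many liver cells express, was at 576, 694, 777, 902 and 715 CPM in knockout and at 634, 584 and 594 CPM in wild-type libraries (0.28, SE 0.17, 0.448). Knockout library 1 was the lowest of the 8 libraries for both genes. Gata4, the master regulator of sinusoidal fate, was at 18.6 ± 7.15 against 19.9 ± 3.41 CPM (-0.11, SE 0.28), and its highest value, 29.7 CPM, was in knockout library 1. Lyve1, the hyaluronan receptor of sinusoidal and lymphatic endothelium, was at 7.64 ± 2.10 against 8.90 ± 2.45 CPM (-0.23, SE 0.25). Gpr182, an atypical chemokine receptor, was at 17.5 ± 2.07 against 21.3 ± 6.67 CPM (-0.29, SE 0.20), and F8, coagulation factor VIII, at 14.8 ± 6.09 against 17.0 ± 4.22 CPM (-0.22, SE 0.29). The edgeR adjusted p of these 4 genes ran from 0.512 for Gpr182 to 0.857 for Gata4.

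For the angiocrine ligands Wnt2, Wnt9b and Rspo3 the groups overlapped and 0 of 3 were called. Wnt2 and Wnt9b are the Wnt ligands of the central vein and pericentral sinusoids, and R-spondin 3 amplifies their signal in hepatocytes. Rspo3 was at 4.89, 6.91, 8.39, 6.88 and 5.66 CPM in knockout and at 7.18, 7.74 and 7.11 CPM in wild-type libraries (log2 fold change -0.15, SE 0.20, edgeR adjusted p = 0.715). Wnt2 was at 3.65 ± 1.37 against 3.52 ± 0.936 CPM (0.04, SE 0.33, 0.962) and Wnt9b at 1.09 ± 0.256 against 0.977 ± 0.328 CPM (0.14, SE 0.35, 0.867). Wnt9b held 6 to 14 reads a library and Wnt2 20 to 49, and no difference was detectable at this depth.

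In the list of hepatocyte genes that respond to Wnt, 0 of 16 were called and 10 were negative, with a median of -0.18. Glul, glutamine synthetase of the innermost pericentral hepatocytes, was at 684, 794, 1138, 970.1 and 878 CPM in knockout and at 1357, 1638 and 1236 CPM in wild-type libraries. All knockout libraries were below all wild-type libraries for Glul (log2 fold change -0.66, SE 0.19, edgeR unadjusted p = 0.00514, adjusted p = 0.297). The next smallest p-values were those of Nkd1 (-0.47, SE 0.18, edgeR adjusted p = 0.340) and Tcf7 (-0.58, SE 0.24, 0.350). Among other secreted endothelial factors, 0 of 6 tested genes were called. The 3 with the smallest p were Kitl, stem cell factor (log2 fold change 1.06, SE 0.40, edgeR adjusted p = 0.336), Cxcl12 (-0.39, SE 0.17, 0.356) and Hgf (-0.21, SE 0.22, 0.662). Like Glul, Cxcl12 was below every wild-type library in all knockout libraries, a pattern that 3.61% of tested genes had.

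Among the 7 junction and pan-endothelial genes, 6 log2 fold changes were negative, the median was -0.21 and 0 were called. Pecam1 (CD31), an adhesion molecule of endothelial contacts, was at 14.6 ± 2.75 against 20.03 ± 4.93 CPM (-0.45, SE 0.21, edgeR adjusted p = 0.368). Robo4, an endothelial guidance receptor, was at 14.9, 6.13, 8.86, 8.58 and 8.77 CPM in knockout and at 13.03, 13.1 and 12.2 CPM in wild-type libraries (-0.46, SE 0.24, 0.405). Knockout library 1 was the highest of all for Robo4, and knockout libraries 2 to 5 were below every wild-type library. Egfl7, a secreted endothelial matrix factor and the highest of this group per length, was at 18.8, 20.2, 21.2, 24.6 and 27.2 CPM in knockout and at 18.2, 18.7 and 25.5 CPM in wild-type libraries (0.11, SE 0.18, 0.776). Cdh5 (VE-cadherin), which holds endothelial junctions together, was at 28.4 ± 4.98 against 32.8 ± 11.5 CPM (-0.21, SE 0.23), Esam, a junctional adhesion molecule, at 9.97 ± 0.807 against 10.2 ± 1.598 CPM (-0.03, SE 0.16), Emcn (endomucin) at 2.51 ± 0.453 against 2.7999 ± 0.0592 CPM (-0.17, SE 0.23) and Nos3 (endothelial nitric oxide synthase) at 4.29 ± 1.14 against 5.38 ± 1.17 CPM (-0.32, SE 0.27). All 7 genes of this group had overlapping libraries.

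Of the 3 genes of larger vessels and continuous capillaries, 2 had negative log2 fold changes, 1 had a positive one and 0 were called. Emcn, also named above for such vessels, was counted with the junction and pan-endothelial genes. Plvap, which forms the diaphragms of caveolae and fenestrae, was at 45.0, 40.2, 65.2, 60.7 and 44.8 CPM in knockout and at 64.0, 58.6 and 51.7 CPM in wild-type libraries (-0.18, SE 0.18, edgeR adjusted p = 0.646). Vwf, von Willebrand factor, was at 6.72 ± 1.68 against 7.88 ± 1.69 CPM (-0.22, SE 0.24, 0.664). Cd34, a sialomucin of capillary endothelium and blood progenitors, had the highest fitted value of the 37 genes. It was at 0.391, 4.24, 2.55, 3.49 and 4.62 CPM in knockout and at 1.32, 1.66 and 2.003 CPM in wild-type libraries (0.92, SE 0.50, 0.416), from 2 to 40 reads a library. Knockout library 1 had the lowest Cd34 level, 2 reads, which is under the floor of 3 reads, and knockout libraries 2 to 5 were above all wild-type libraries. Markers of erythroid cells were positive in 8 of 8 tested genes (median 0.97, 0 called), with a summed level of 183 to 622 CPM in knockout libraries and 148 to 184 CPM in those of wild type, and their relation to Cd34 was not tested.

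Of the 4 transcription factors, Sox18 and Erg had negative and Klf2 and Klf4 positive log2 fold changes, and 0 were called. Sox18, a SOX factor of vessel development, was at 2.93, 3.901, 3.58, 4.55 and 3.81 CPM in knockout and at 6.99, 5.90 and 3.91 CPM in wild-type libraries (-0.56, SE 0.23, edgeR unadjusted p = 0.0365, adjusted p = 0.350). Erg, an ETS factor that maintains endothelial identity, was at 3.13, 2.56, 2.73, 2.33 and 3.81 CPM in knockout and at 4.53, 4.70 and 3.51 CPM in wild-type libraries (-0.55, SE 0.23, edgeR unadjusted p = 0.0372, adjusted p = 0.350). Wild-type library 3 lay within the knockout range for both genes. Klf2, induced by laminar flow, was at 8.22, 6.02, 6.51, 7.52 and 7.50 CPM in knockout and at 5.19, 6.17 and 8.71 CPM in wild-type libraries (0.09, SE 0.21, 0.846). Klf4, also induced by flow, held 3 to 12 reads a library (0.66, SE 0.52, 0.552), which leaves its direction unresolved.

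For both activation genes the groups overlapped, and 0 of 2 were called. Icam1, the adhesion molecule for leukocyte integrins, was at 13.9, 10.6, 11.9, 17.6 and 11.2 CPM in knockout and at 15.01, 16.2 and 12.8 CPM in wild-type libraries (-0.17, SE 0.19, edgeR adjusted p = 0.668). Il1a, the cytokine interleukin-1 alpha, was at 8.41, 3.901, 4.15, 4.87 and 3.46 CPM in knockout and at 4.06, 3.78 and 8.61 CPM in wild-type libraries (-0.18, SE 0.36, 0.826). For Il1a 1 library of each genotype was high, knockout library 1 and wild-type library 3. Of 8 tested genes of leukocyte adhesion and chemotaxis, 0 were called and 5 were negative, with Itgb2 (-0.39, SE 0.33), Ccl2 (0.37, SE 0.53) and Cx3cl1 (-0.29, SE 0.48) having the smallest p (edgeR adjusted p = 0.590, 0.745 and 0.774).

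Compared per length, the 37 genes spanned a wide range. In wild-type liver Ctsl was highest at 306 ± 13.4 RPKM (here the CPM above divided by gene length in kilobases), followed by Clec4g at 58.3 ± 8.60, Plvap at 28.6 ± 3.04, Ehd3 at 25.8 ± 6.95 and Eng at 24.1 ± 4.63 RPKM. Plvap and Ehd3, and Ehd3 and Eng, are neighbours in this order that differed by less than either SD. Plvap and Eng differed by more than the SD of Plvap but by less than the SD of Eng. Kdr, at 9.75 ± 2.75 RPKM, and Maf, at 8.72 ± 1.53 RPKM, were neighbours within their SDs in wild-type liver, and in knockout liver Maf was at 14.4 and Kdr at 5.76 RPKM. The lowest levels were those of Cd34 (0.634 ± 0.130), Klf4 (0.233 ± 0.152) and Wnt9b (0.216 ± 0.0725 RPKM).

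**Figure D3:**
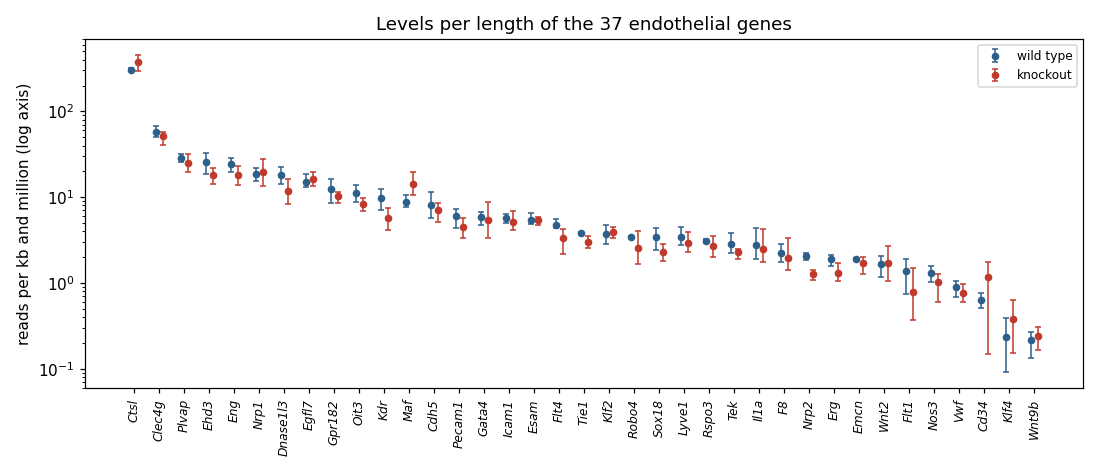
Mean level per length (y axis, RPKM, log scale) of each of the 37 genes in wild-type (blue) and knockout (red) liver, ordered by the wild-type mean, with bars from the lowest to the highest library. Ctsl stands at the top at 306 RPKM and Wnt9b at the end at 0.216 RPKM, and for most genes the bars of the genotypes overlap.

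Sinusoidal and general endothelial genes were set side by side as 13 sinusoidal and angiocrine genes and 22 general genes (receptors, junctions, larger vessels and transcription factors). The sets also differed in median gene length, 2716 bases for the sinusoidal and 3630.5 bases for the general genes. The share of length in the comparison was not tested. The sinusoidal median log2 fold change was -0.16, with 9 of 13 negative, and the general median was -0.32, with 17 of 22 negative. The sinusoidal median was thus 0.16 above the general one, and this difference is given as a description without a test. Between libraries of the same genotype, the SD of this difference was 0.13. With coverage evenness as a covariate the medians were -0.06 and -0.12, and the difference was 0.06. Without knockout library 1 the sinusoidal median was -0.24, and the general median lay between Tie1 (-0.35) and Nos3 (-0.30). With the per-library correction for length the sinusoidal median was -0.15, and the general median lay between Tie1 (-0.24) and Tek (-0.23). In both settings the sets lay closer together than in the main fit. Per library, the median log2 CPM of the sinusoidal genes exceeded that of the general genes by 1.32, 0.98, 0.72, 1.04 and 1.04 in knockout libraries 1 to 5 and by 0.98, 0.77 and 0.41 in wild-type libraries 1 to 3. The ranges of the genotypes overlapped. Relative to the wild-type mean of each gene, the sinusoidal set was at -0.07, -0.45, -0.26, -0.09 and -0.13 in knockout and at 0.22, -0.05 and -0.28 in wild-type libraries, so wild-type library 3 lay below 4 of the 5 knockout libraries. The general set was at -0.16, -0.56, -0.11, -0.28 and -0.29 in knockout and at 0.10, 0.01 and -0.15 in wild-type libraries. The sinusoidal median shrank to -0.01 without wild-type library 1, where the general median was -0.21.

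Other endothelial genes outside the 37 were mixed as well. Of 29 tested, 17 were negative, the median was -0.16 and 0 were called. The 3 with the smallest p were Sox7 (1.78 ± 0.412 against 3.40 ± 0.535 CPM, log2 fold change -0.92, SE 0.25, edgeR adjusted p = 0.293), a SOX factor related to Sox18, Cav1, which forms caveolae (6.69 ± 3.95 against 2.36 ± 0.451 CPM, 1.52, SE 0.48, 0.327), and Rasip1, a regulator of vessel lumens (-0.62, SE 0.20, 0.328). Sox7 and Rasip1 were lower in every knockout library, as were 3.61% of tested genes, and Cav1 was higher, as were 3.04%. Stab2, the homologous scavenger receptor, was at 65.7, 45.6, 52.8, 55.2 and 59.0 CPM in knockout and at 69.2, 64.9 and 62.8 CPM in wild-type libraries (-0.24, SE 0.14, 0.443).

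Without knockout library 1 edgeR called 0 of the 37 genes, beside 0.928% of all tested genes. Negative log2 fold changes numbered 30 of the 37, beside 52.7% of tested genes. In those libraries, 8 genes were lower in every remaining knockout library (Dnase1l3, Eng, Flt1, Flt4, Kdr, Nrp2, Robo4 and Tie1), where 8.87% of tested genes had that pattern, and 3 were higher (Cd34, Ctsl and Maf), where 9.42% did. DESeq2's Wald test on those 7 libraries, an added setting picked once the data had been seen, called 8 of the 37, or 21.6%, beside 8.82% of all tested genes. Of these, 6 fell, beside 3.26% of tested genes: Dnase1l3 (log2 fold change -0.80, DESeq2 adjusted p = 0.00526), Kdr (-0.86, 0.00699), Nrp2 (-0.74, 0.00928), Flt1 (-1.17, 0.0181), Robo4 (-0.66, 0.0322) and Flt4 (-0.64, 0.0490). The other 2, Maf (0.81, DESeq2 adjusted p = 0.0153) and Cd34 (1.16, 0.0259), rose, beside 5.56%. With the evenness of coverage added to that fit, DESeq2 called 0 of the 37, beside 0.782% of tested genes.

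The order of the libraries by endothelial level followed the evenness of coverage in part. Relative to the wild-type mean, the median of the 8 growth factor receptors was -0.16, -0.69, -0.37, -0.46 and -0.53 in knockout libraries 1 to 5 and 0.25, 0.0030 and -0.21 in wild-type libraries 1 to 3. The 3 most even libraries (wild-type 1 and 2 and knockout 1) were the 3 highest, and the least even, knockout library 2, was the lowest. Knockout library 3 did not follow this order: it was more even than wild-type library 3 and lower for the receptors, and for the sinusoidal set it lay below the less even knockout libraries 4 and 5. With evenness as a covariate, edgeR called 0 of the 37, beside 0.178% of tested genes. In that fit 26 of the 37 were negative, beside 48.7% of tested genes, the median over the 37 was -0.12, and the fitted change was smaller in size for 30 of them. Kdr went from -0.76 to -0.43, Flt1 from -0.86 to -0.21, Dnase1l3 from -0.66 to -0.34, Maf from 0.72 to 0.43 and Cd34 from 0.92 to 0.23, while Nrp2 went from -0.70 to -0.62. All 5 knockout libraries were less even than wild-type libraries 1 and 2, knockout library 1 (1.444) just below wild-type library 2 (1.447), and 2 of the 5 were more even than wild-type library 3. Evenness and genotype thus went together in part, and their shares in the fitted changes cannot be told apart. A role of coverage in the endothelial values was not tested.

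**Figure D4:**
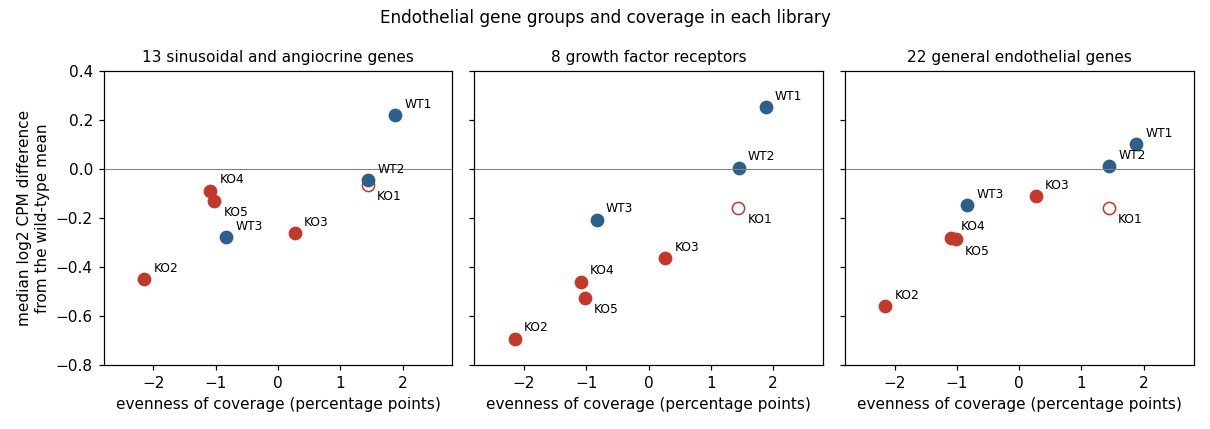
Median log2 CPM difference from the wild-type mean (y axis) of the 13 sinusoidal and angiocrine genes, the 8 growth factor receptors and the 22 general endothelial genes against the evenness of coverage of each library (x axis, percentage points), with wild type in blue, knockout in red and knockout library 1 open. In each panel knockout library 2 is lowest and furthest left and wild-type library 1 is highest and furthest right.

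**Figure D5:**
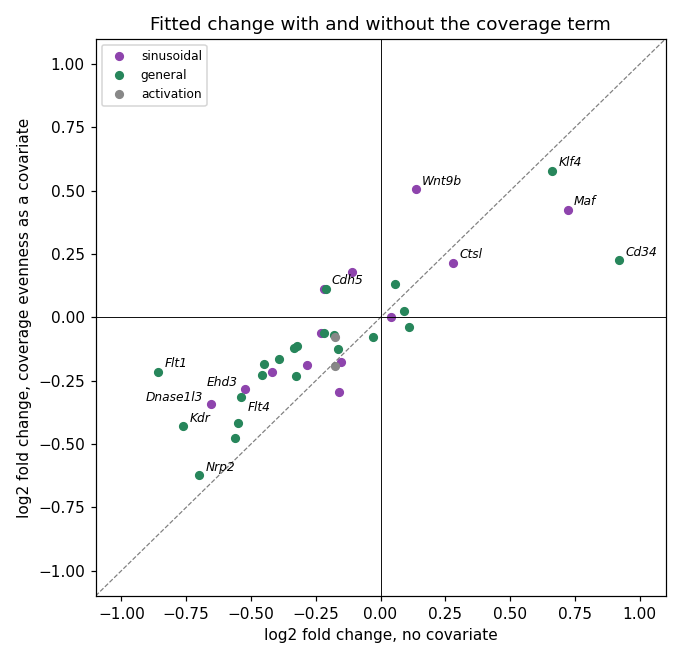
Log2 fold change of each of the 37 genes without (x axis) and with (y axis) evenness of coverage as a covariate in edgeR, coloured by set, with the dashed line of equal values. Most points lie nearer to 0 on the y axis than on the x axis, Flt1 (-0.86 to -0.21) and Cd34 (0.92 to 0.23) among the furthest from the line, and Nrp2 (-0.70 to -0.62) lies close to it.

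Over the 37 genes, Spearman's rho between gene length and log2 fold change was -0.38, and over the 12338 tested genes it was -0.35. Genes share libraries, so these are descriptions across genes. The 11 genes longer than 4000 bases, Kdr, Flt1, Flt4, Nrp1 and Nrp2 among them, had a median log2 fold change of -0.32, against -0.13 for all tested genes of that length, and the 9 genes of up to 2000 bases had -0.16 against 0.18. In each length class the endothelial median was below that of all genes. With a per-library correction for length, 29 of the 37 were negative, beside 52.0% of tested genes. Kdr was then at -0.64, Nrp2 at -0.56 and Maf at 0.80.

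Markers of other liver cells were summed in each library. Stellate cell markers, of which 11 of 12 were negative (median -0.29, 0 called), summed to 429 to 662 CPM in knockout libraries and 654 to 711 CPM in those of wild type. Biliary markers were negative in 1 of 5 tested genes (median 0.71) and summed to 56.7 to 132 CPM against 53.9 to 65.1 CPM. The 4 lymphatic endothelial markers in the table had a summed level of 67.9 to 100.15 CPM under knockout and 102 to 144 CPM under wild type. Of the 3 that were tested, 2 were negative and 1 was positive (log2 fold changes from -0.62 to 1.55, 0 called). Reln is in this list and in the stellate list, so neither sum stands for its cell type alone. T, B and NK cell markers summed to 5.46 to 11.4 CPM against 6.82 to 10.9 CPM, and no marker of any of these lists was at 0 reads in all libraries. Of the 8 tested hepatocyte markers, 4 had negative and 4 had positive log2 fold changes (median -0.02, 0 called). Their sum, in which Alb dominates, was 78406 to 136274 CPM in knockout libraries and 150799 to 158458 CPM in those of wild type. Knockout library 1 was the lowest. The part of these cells in the endothelial values was not tested.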

How the data were processed

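The authors deposited 1 gene table of 19464 rows, with a count of uniquely mapped reads, a covered percent and an RPKM value per gene and library, per the file headers. The deposited RPKM values equalled those recomputed from counts, lengths and totals and were not tested. The deposited covered percent was used for the evenness of coverage, over genes with 20 to 500 reads. Aligner, build and strandedness: not given in the sources used here; per the labels' protocols, libraries were made at BGI.

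A dash was read as 0, and reads were summed over rows sharing an identifier. Counts were tested in R 4.3.3 with edgeR 4.0.16 (filterByExpr, TMM, quasi-likelihood F test, no covariate), with Benjamini-Hochberg adjustment over all 12338 tested genes. DESeq2 1.42.0, other scaling, no filter, the replicate block, gene length, evenness of coverage and leaving out each library were alternatives. SE is the log2 fold change over the square root of F. A floor of 3 reads was 0.587 CPM in knockout library 1 and 0.276 to 0.346 CPM in the others, on the TMM scale, for counting error only. Both tests were tested on simulated data. No libraries of a group agreed within sampling noise.

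Every one of the 37 genes is accounted for. Per-library values are given for genes that were called, had an unadjusted p below 0.05 or did not overlap, and for the highest of each role per length. Those of Il1a, Clec4g, Nrp1, Vegfa, Glul and Stab2 were added after their values were seen, as was Stab2 itself. From each related list the 3 genes with the smallest p could be named. The members and lists were chosen with earlier results of these data known.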

Additional observations from a re-analysis of the deposited data

Results flagged for a closer look

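Chance marks about 1 in 20 groups, and 37 groups of 5 knockout libraries were looked at. In 2 of them the library at one end stood far from the other 4. Clec4g was at 49.9 CPM in knockout library 1, against 65.9 to 71.5 CPM in the other knockout libraries. Il1a was at 8.41 CPM in knockout library 1, against 3.46 to 4.87 CPM in the others. Both are values of the library that stands apart by its Xist and Ddx3y reads.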

How the results depend on the processing

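edgeR called 28 genes in all and 0 of the 37. DESeq2 called 137 genes and 1 of the 37, and without knockout library 1 it called 1083 and 8, or 96 genes with the evenness of coverage added. The last 2 settings were chosen after the data were seen, and the cause of these differences was not tested. Leaving out 1 library gave 13 to 114 genes (114 without knockout library 1, 93 without wild-type library 3, 15 without wild-type library 1, 13 without wild-type library 2) and 0 of the 37. The general endothelial median moved to -0.12 with evenness as a covariate. The sinusoidal median ranged from -0.26 to -0.01 with 1 library left out, the latter without wild-type library 1.

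The correlations of same-numbered libraries were 0.12, -0.15 and -0.15, too few values to show whether the replicate numbers pair the libraries. With the replicate block, edgeR called 8 genes and 0 of the 37, Wnt2 was at -0.28 and Egfl7 at -0.041. Knockout libraries 4 and 5 have no wild-type library of their number, so they add nothing to the genotype difference in that fit.

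Over 16 alternatives, 19 of the 37 genes kept their direction, 16 lower and 3 higher, and 18 turned in at least 1, which made 34 of 592 values. With 1 library left out, log2 fold changes ran from -0.37 to 0.021 for Lyve1, -0.34 to 0.023 for Gata4, -0.18 to 0.21 for Wnt2, -0.11 to 0.30 for Wnt9b, -0.11 to 0.18 for Nrp1, -0.42 to 0.10 for Cdh5, -0.11 to 0.11 for Esam, -0.061 to 0.32 for Klf2 and -0.42 to 0.30 for Il1a. With evenness as a covariate, Gata4 was at 0.18, F8 at 0.11, Cdh5 at 0.11 and Egfl7 at -0.038, and with the length correction Egfl7 was at -0.039. In DESeq2 without knockout library 1, Nrp1 was at -0.11. With evenness added there, values were 0.10 for Gpr182, -0.17 for Wnt2, 0.039 for Rspo3, -0.20 for Nrp1, 0.072 for Pecam1, 0.22 for Cdh5, -0.027 for Egfl7, 0.14 for Nos3, 0.16 for Plvap, 0.27 for Vwf, -0.20 for Klf2 and -0.12 for Klf4. Depth limits Wnt9b, Klf4 and Cd34 most, with 2 to 40 reads a library.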
